A study of Mus musculus with 16 samples.

Results

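A set of 7 genes that encode transcription factors of the intestinal epithelium other than Cdx was followed across mouse colon organoids: Hnf4a, Hnf4g, Gata4, Gata6, Isx, Prdm1 and Satb1. They were taken by name from the 54123 genes to which the transcripts in the files were summed. The reads of each gene were summed over its annotated transcripts in each of 16 libraries. Of the 7 genes 6 had enough reads to be tested and Satb1 did not.

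HNF4A and HNF4G are paired nuclear receptors that bind the enhancers of enterocyte genes for lipid handling and for the brush border, the carpet of microvilli on the absorptive surface. GATA4 and GATA6 are zinc finger factors of the endoderm, and in the adult intestine GATA4 is known for holding jejunal identity against ileal identity. ISX is an intestine-specific homeobox factor, known as a repressor of the genes for vitamin A and carotenoid uptake. PRDM1 (Blimp1) is a repressor that marks the fetal and suckling intestinal epithelium and also differentiating cells of several tissues. SATB1 is a chromatin organiser best known from T cells. CDX2, which was targeted here, is the homeobox factor that sets intestinal identity, and CDX1 is its paralog.

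The groups combine 2 colon regions (proximal or distal), 2 guides (Scramble-sgRNA as the control or Cdx2-sgRNA) and 2 media (WENR-plus or WENR-minus), with 2 libraries in each of the 8 groups. WENR stands for the growth factors Wnt3a, EGF, Noggin and R-spondin 1. All organoids came from female mice of 8 weeks with a heterozygous Cre-inducible BrafV600E allele and a heterozygous tdTomato reporter, and no Cre treatment is named for these groups. The methods describe lentiviral Cas9 with either guide, organoids from 2 independent mice, single-cell clones with frameshift mutations in both alleles for Cdx2-sgRNA but no such step for Scramble-sgRNA, and 4 months of culture followed by 2 days in WENR-plus and 3 days in the final medium. The Cdx2-sgRNA groups thus rest on clones. The p-values rest on the spread between the 2 libraries within groups, estimated over all 8 groups together.

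The libraries held between 12465194 and 18922143 counts each, with 16836530 as the median. The targeted gene was read first. Cdx2, on chromosome 5 at 147300805 to 147307270 (minus strand, GRCm38), stood in proximal Scramble-sgRNA organoids at 203 and 151 CPM (counts scaled by TMM to a common library total) in WENR-minus and at 142 and 127 CPM in WENR-plus. Proximal Cdx2-sgRNA organoids held 73.9 and 71.0 CPM in WENR-minus and 29.9 and 33.3 CPM in WENR-plus, which is 2.44-fold and 4.25-fold lower (adjusted p = 0.000679 and 5.48e-05, edgeR). In distal organoids Cdx2 RNA held 112 and 110 CPM with Scramble-sgRNA against 126 and 86.1 CPM with Cdx2-sgRNA in WENR-minus, and the distal differences did not pass the test in either medium (log2 -0.07, adjusted p = 0.876 and log2 -0.36, adjusted p = 0.857). Its paralog Cdx1 was 306-fold and 98.1-fold lower in proximal Cdx2-sgRNA organoids (WENR-minus and WENR-plus) and was not called in distal organoids. A frameshift need not lower the RNA of a gene, so the RNA does not check the distal labels. Epithelial genes (Epcam, Cdh1, keratins) summed to between 4400 and 6267 TPM (a level per transcript length, scaled to a common library total) in the WENR-plus libraries and to between 10416 and 18238 TPM in the WENR-minus libraries. Krt19 alone held 69.6% of the sum in proximal Cdx2-sgRNA organoids in WENR-minus and 46.2% in their controls. Within that list Epcam, an epithelial adhesion gene, was lower in proximal Cdx2-sgRNA organoids in WENR-minus (from 1834 to 476 CPM, 3.85-fold, adjusted p = 1.10e-05), as was the tight junction gene Cldn7 (from 378 to 96.2 CPM, 3.93-fold, adjusted p = 5.17e-05). Cldn7 was also called lower in WENR-plus (2.33-fold, adjusted p = 0.00166).

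The start regions of Hnf4a and Isx are shown because the results below turn on these genes and on the share of reads at each Hnf4a start. They are RefSeq windows of GRCm38.p6, on the plus strand, read 5′ to 3′ and ended before any UTR that GENCODE annotates. Hnf4a has an upstream start (P2) and a downstream start (P1), and the stretch before P2 lies at chr2:163506607-163506807, that before P1 at chr2:163546905-163547154 and that before Isx at chr8:74872924-74873172. All letters are in lower case, since no motif searched lies wholly within a printed stretch.
Hnf4a P2: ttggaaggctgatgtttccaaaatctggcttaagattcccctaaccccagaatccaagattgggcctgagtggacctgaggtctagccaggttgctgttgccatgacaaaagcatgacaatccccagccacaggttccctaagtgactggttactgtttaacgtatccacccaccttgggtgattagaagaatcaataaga
Hnf4a P1: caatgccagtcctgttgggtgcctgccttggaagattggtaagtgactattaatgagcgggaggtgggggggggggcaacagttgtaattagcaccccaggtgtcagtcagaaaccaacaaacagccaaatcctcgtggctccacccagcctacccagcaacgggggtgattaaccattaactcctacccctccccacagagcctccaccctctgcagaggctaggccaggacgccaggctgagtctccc
Isx: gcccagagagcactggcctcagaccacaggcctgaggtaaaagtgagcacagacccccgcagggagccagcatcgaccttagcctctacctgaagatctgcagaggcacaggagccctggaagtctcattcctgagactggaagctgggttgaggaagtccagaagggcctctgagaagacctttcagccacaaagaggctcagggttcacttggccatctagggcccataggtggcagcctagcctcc
Motif letters were searched on both strands of the 250 bases before the RefSeq start. CDX factors were represented by TTTATNG. The letters for GATA factors were AGATAA. The HNF4 site was read as CAAAGTNCA. Before P2, AGATAA stood on the forward strand at 52 to 47 bases before the RefSeq start, running past the end of the printed stretch. None of the 3 stood in the Isx window or in that before P1. Of 32851 RefSeq windows of this length 9.81% held TTTATNG, 9.99% AGATAA and 1.19% CAAAGTNCA. A match is a description of letters only, and the absence of one says nothing of the factor. The table held 5 windows for Satb1 and 1 for Prdm1 as well, and none for Hnf4g, Gata4 or Gata6.

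The 7 genes differed widely in level. Per length, the group means of Hnf4a ran from 43.3 to 521 TPM and those of Isx from 1.02 to 338 TPM. Gata6 ran from 12.8 to 33.0 TPM, Prdm1 from 1.06 to 27.6 TPM, Hnf4g from 1.35 to 9.73 TPM and Gata4 from 0.0382 to 3.13 TPM. Within the HNF4 pair Hnf4a held more TPM than Hnf4g in 16 of 16 libraries, by 16.6 to 120.0 times. Within the GATA pair Gata6 held more TPM than Gata4 in 16 of 16 libraries, with 1.56 as the lowest ratio. No upper end is given, since Gata4 had at most 2 reads in 5 libraries, 2 of them at 0. A short annotated P2 fragment takes 18.9 to 66.5% of the TPM of Hnf4a but 1.26 to 9.97% of its reads, so the TPM of Hnf4a is partly that of the fragment.

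**Figure D1:**
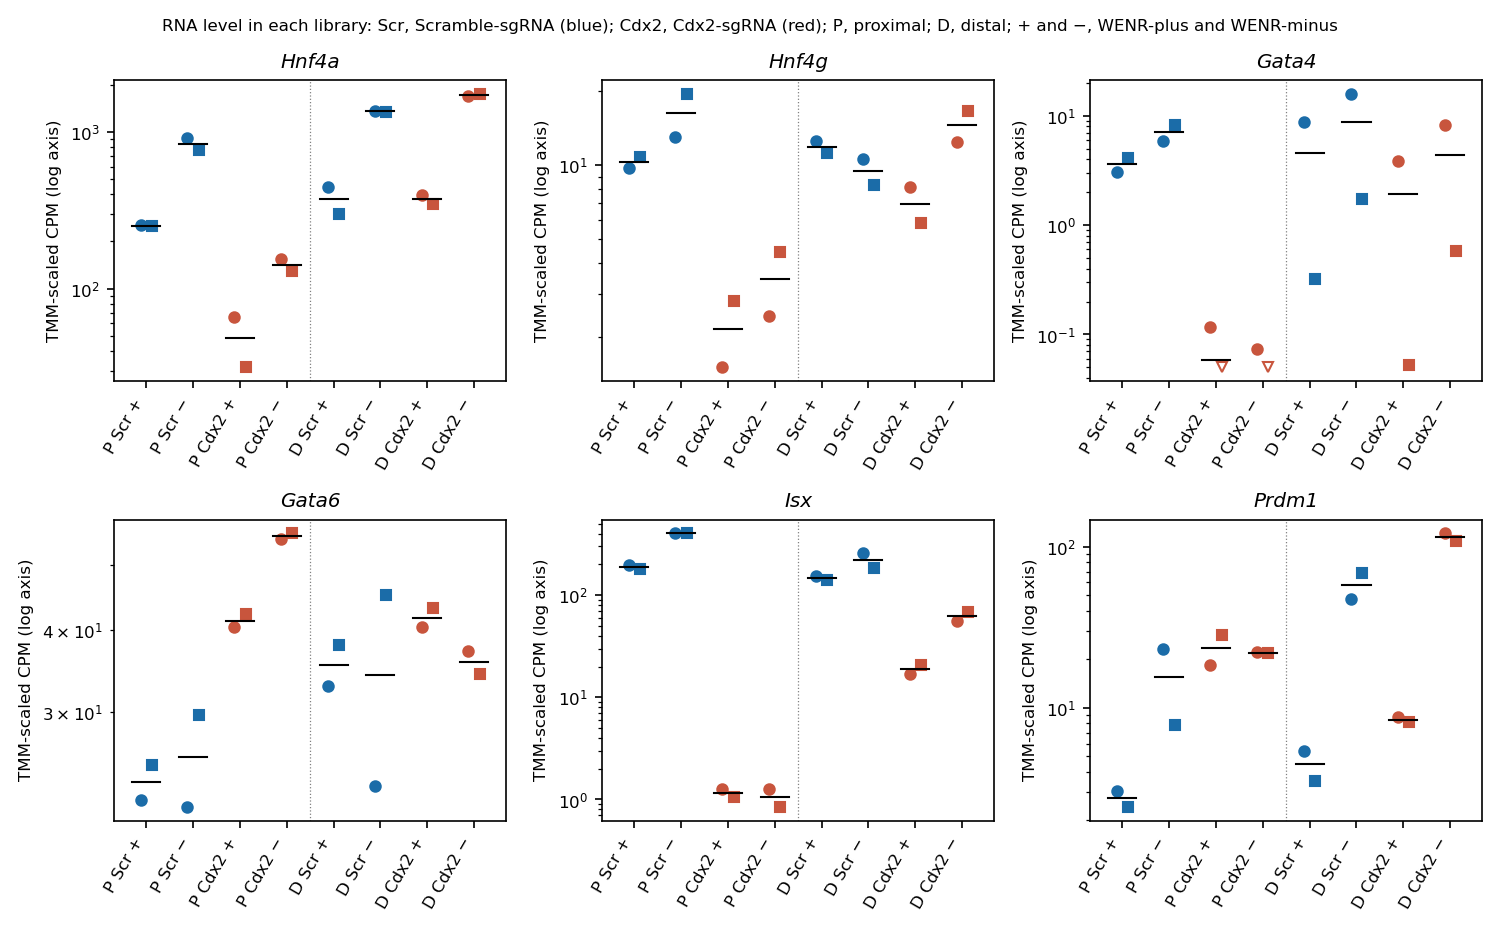
CPM of the 6 tested genes in each library (log axis; circles, replicate 1; squares, replicate 2; bars, group means; blue, Scramble-sgRNA; red, Cdx2-sgRNA; open triangles, 0 reads). Isx lies near 1 CPM in all 4 proximal Cdx2-sgRNA libraries, and Hnf4a is higher without WENR in each region and with each guide.

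The first question was how Cdx2 loss moved these genes in each region and medium. A call required both a change beyond 1 on the log2 scale, up or down, and an adjusted p under 0.05. In proximal organoids in WENR-minus 5 of the 6 tested genes were called, 4 lower (Isx, Gata4, Hnf4a and Hnf4g) and 1 higher (Gata6), where 21.2% of 15289 genes were called. In WENR-plus 4 were called, with Isx, Hnf4a and Hnf4g lower and Prdm1 higher, beside 15.9% of all genes. In distal organoids Isx alone was called, in WENR-minus beside 5.25% and in WENR-plus beside 0.262% of all genes. The median log2 fold change of the 6 genes, with Gata4 set at a floor of 3 reads in each proximal Cdx2-sgRNA library, was -2.40 and -2.31 in proximal organoids (WENR-minus and WENR-plus) and 0.21 and -0.39 in distal organoids, against medians of all genes within 0.05 of 0.

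**Figure D2:**
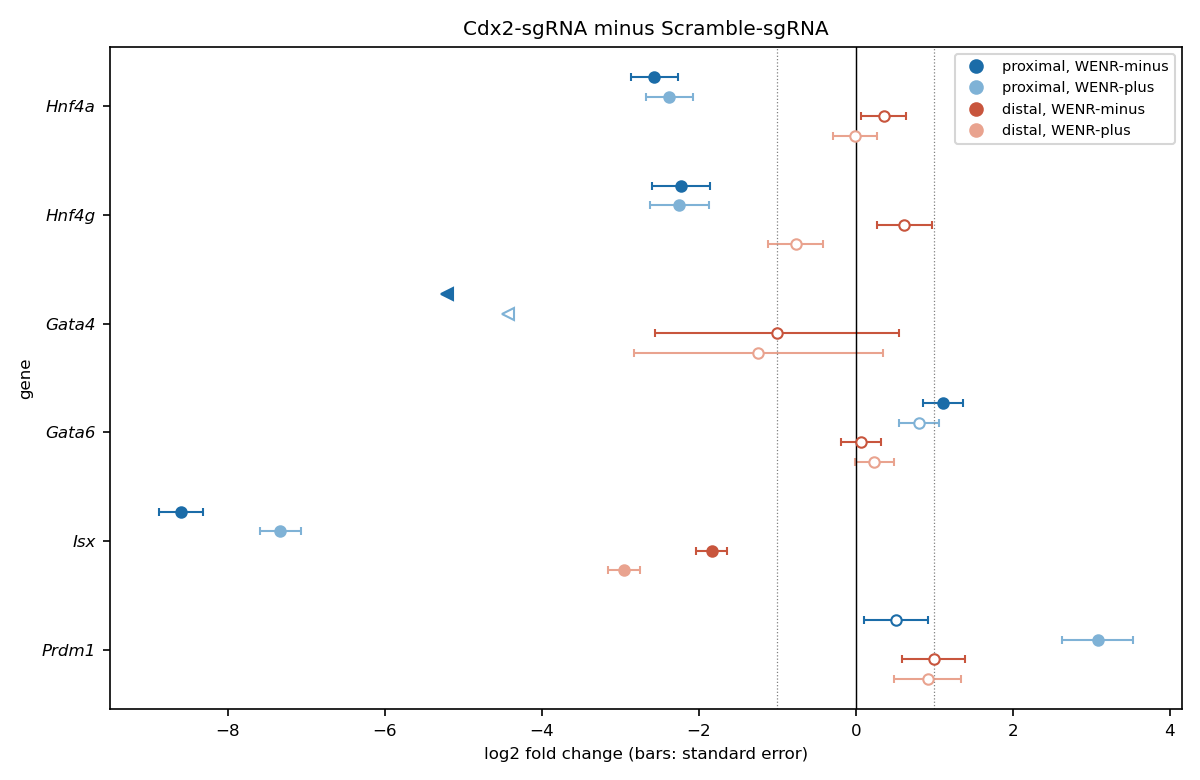
Log2 fold change of the 6 genes, Cdx2-sgRNA minus Scramble-sgRNA, in each region and medium (bars, standard error; filled, called; open, not called; triangles, Gata4 with each proximal Cdx2-sgRNA library set at a floor of 3 reads; dotted lines, the fold threshold). Isx is lower in all 4 comparisons, from -1.83 to -8.59 on the log2 scale, and the HNF4 pair is lower in proximal organoids.

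Markers of other epithelial cell types moved in the same proximal comparisons. Of all genes, 21.2% were called there in WENR-minus and 15.9% in WENR-plus. In WENR-minus the 7 goblet cell genes summed to 6732 to 8153 TPM in proximal Scramble-sgRNA organoids and to 38.9 to 98.4 TPM in Cdx2-sgRNA organoids, and 7 of 7 were lower. The 7 enteroendocrine genes went from 103.5 to 170.2 TPM down to 0.814 to 1.65 TPM (7 of 7 lower). The 8 colonocyte genes went from 11401 to 14175 TPM down to 1018 to 1980 TPM (6 of 8 lower), and the 6 tuft cell genes from 0.169 to 0.233 TPM up to 58.6 to 94.6 TPM (2 of 3 tested higher). In the latter Ptgs1, a prostaglandin synthase gene, held 89.9% of the tuft cell sum, and Car1, a carbonic anhydrase gene, held 72.8% of the colonocyte sum of the controls. In WENR-plus the goblet cell sum went from 1254 to 1877 TPM down to 39.1 to 62.6 TPM (5 of 7 lower), the enteroendocrine sum from 39.7 to 60.6 TPM down to 1.56 to 2.33 TPM (5 of 7 lower), the colonocyte sum from 1009 to 1059 TPM down to 323 to 377 TPM (4 of 8 lower, 1 higher) and the tuft cell sum from 0.140 to 0.605 TPM up to 39.1 to 75.8 TPM (3 of 3 tested higher), of which Alox5ap held 52.7%. In distal organoids in WENR-minus (Scramble-sgRNA against Cdx2-sgRNA) the colonocyte sum stood at 8620 to 12180 against 16809 to 17704 TPM. The goblet cell sum stood at 5334 to 9597 against 3521 to 9727 TPM, and the enteroendocrine sum at 484 to 498 against 383 to 402 TPM. For these last lists 0 of 7 genes each stood at an unadjusted p under 0.05 by edgeR. The part of the markers in the changes of the 6 genes was not tested. In bulk RNA, fewer cells of a type and less RNA per cell cannot be told apart.

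The second question was how each gene answered the removal of WENR. In WENR-minus against WENR-plus, 3 of the 6 genes were called in proximal Scramble-sgRNA organoids (Hnf4a, Isx and Prdm1, beside 17.0% of all genes), 1 in proximal Cdx2-sgRNA organoids (Hnf4a, beside 6.40%), 2 in distal Scramble-sgRNA organoids (Hnf4a and Prdm1, beside 26.4%) and 4 in distal Cdx2-sgRNA organoids (Hnf4a, Hnf4g, Isx and Prdm1, beside 33.1%). All 10 calls were higher in WENR-minus. Between regions, proximal against distal, 1 gene was called in Scramble-sgRNA organoids in WENR-minus (Prdm1, lower, beside 6.08% of all genes) and 0 of 6 in WENR-plus (beside 1.75%). For these 6 genes DESeq2 called 0 as well, and 1 stood at an unadjusted p under 0.05. In Cdx2-sgRNA organoids 5 were called in WENR-minus, all lower in proximal (beside 34.6%), and 4 in WENR-plus, of which Prdm1 was higher (beside 17.0%).

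Markers of cell types moved with the medium as well. Of all genes, 17.0% and 6.40% were called between media in proximal Scramble-sgRNA and Cdx2-sgRNA organoids, and 26.4% and 33.1% in the distal ones. Of the 6 epithelial genes (Epcam, Cdh1, Cldn7 and 3 keratins) 4, 3, 5 and 5 were higher in WENR-minus in proximal Scramble-sgRNA, proximal Cdx2-sgRNA, distal Scramble-sgRNA and distal Cdx2-sgRNA organoids (medians of 1.15, 0.87, 1.30 and 1.44 on the log2 scale). The 8 colonocyte genes summed to 1009 to 1059 TPM in WENR-plus and to 11401 to 14175 TPM in WENR-minus in proximal Scramble-sgRNA organoids (7 of 8 higher), and to 1279 to 1493 against 8620 to 12180 TPM in distal ones (8 of 8 higher). In Cdx2-sgRNA organoids they went from 323 to 377 TPM up to 1018 to 1980 TPM in proximal (2 of 8 higher) and from 1461 to 2086 TPM up to 16809 to 17704 TPM in distal organoids (7 of 8 higher). The 8 crypt base genes moved the other way, from 483 to 485 TPM down to 91.3 to 139 TPM in proximal Scramble-sgRNA (7 of 8 lower), from 314 to 428 down to 74.3 to 91.6 TPM in distal Scramble-sgRNA (7 of 8), from 407 to 501 down to 101 to 197 TPM in proximal Cdx2-sgRNA (6 of 8) and from 289 to 439.6 down to 52.7 to 53.5 TPM in distal Cdx2-sgRNA organoids (8 of 8). The goblet cell sum went from 1254 to 1877 TPM up to 6732 to 8153 TPM in proximal Scramble-sgRNA organoids, from 1520.4 to 2501 up to 5334 to 9597 TPM in distal Scramble-sgRNA and from 1142 to 3867 up to 3521 to 9727 TPM in distal Cdx2-sgRNA organoids (4 of 7 higher in each), and stood at 39.1 to 62.6 against 38.9 to 98.4 TPM in proximal Cdx2-sgRNA organoids (0 of 7 called by edgeR and 0 at an unadjusted p under 0.05). The enteroendocrine sum went from 39.7 to 60.6 up to 103.5 to 170.2 TPM in proximal Scramble-sgRNA (5 of 7 higher), from 158 to 166 up to 484 to 498 TPM in distal Scramble-sgRNA (5 of 7) and from 163 to 167 up to 383 to 402 TPM in distal Cdx2-sgRNA organoids (4 of 7), and stood at 1.56 to 2.33 against 0.814 to 1.65 TPM in proximal Cdx2-sgRNA organoids (0 of 7 called by edgeR and 0 at an unadjusted p under 0.05). The part of these cell types in the medium responses of the 6 genes was not tested.

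**Figure D3:**
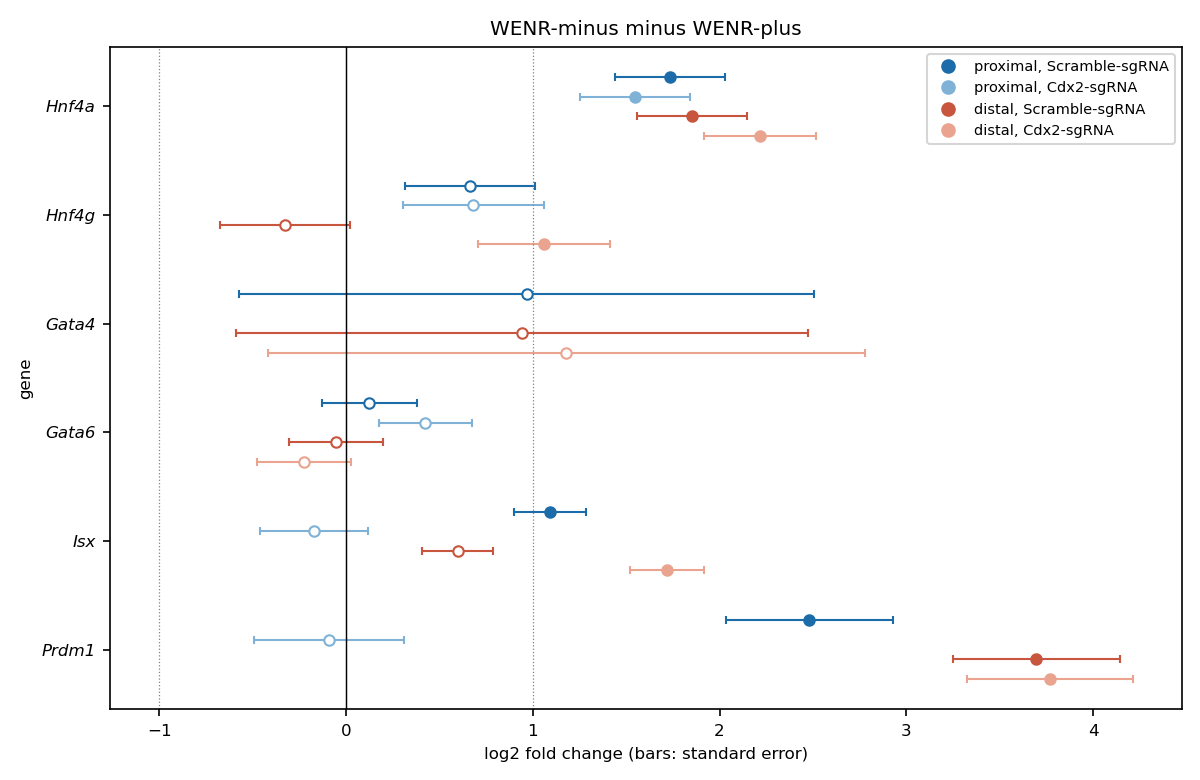
Log2 fold change of the 6 genes, WENR-minus minus WENR-plus, in each region with each guide (bars, standard error; filled, called; open, not called; dotted lines, the fold threshold; no value for Gata4 in proximal Cdx2-sgRNA organoids, where both media hold at most 3 reads). Hnf4a is called in all 4 comparisons, from 1.55 to 2.22, and Prdm1 in 3.

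The third question was whether the response to Cdx2 loss differed between regions, or the response to the medium between guides. The effect of Cdx2-sgRNA differed between proximal and distal organoids for 3 of 6 genes in WENR-minus (Hnf4a, Hnf4g and Isx, beside 14.3% of all genes) and for 2 in WENR-plus (Hnf4a and Isx, beside 4.98%), each time lower in proximal. The effect of the medium differed between guides for Prdm1 in proximal organoids (beside 3.60%). In distal organoids it was called for no gene (0% of 15289 by edgeR, with 1457 at an unadjusted p under 0.05 and 113 called by DESeq2). Of the 6 genes 2 stood at an unadjusted p under 0.05 and DESeq2 called 1, Isx.

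Hnf4a, on chromosome 2 at 163506808 to 163572910 (plus strand, GRCm38), stood at 916 and 763 CPM in proximal Scramble-sgRNA organoids in WENR-minus and at 254 and 250 CPM in WENR-plus. With Cdx2-sgRNA it held 155 and 129 CPM in WENR-minus and 65.8 and 31.4 CPM in WENR-plus. All 4 proximal Cdx2-sgRNA libraries lay below all 4 proximal Scramble-sgRNA libraries. Hnf4a fell by 2.56 ± 0.30 on the log2 scale (SE) in WENR-minus (5.92-fold, adjusted p = 0.000115) and by 2.38 ± 0.30 in WENR-plus (5.19-fold, adjusted p = 0.000314).

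Distal organoids held 1360 and 1335 CPM of Hnf4a with Scramble-sgRNA and 1700 and 1750 CPM with Cdx2-sgRNA in WENR-minus. In WENR-plus they held 447 and 299.6 CPM with Scramble-sgRNA and 394 and 348 CPM with Cdx2-sgRNA. In WENR-minus both distal Cdx2-sgRNA libraries lay above both controls, which with 2 libraries each is not a test by itself. The difference of 0.36 ± 0.29 did not pass the test (adjusted p = 0.470). In WENR-plus the values overlapped (log2 -0.0091 ± 0.29, adjusted p = 1.00). The effect of Cdx2 loss on Hnf4a was lower in proximal than in distal organoids by -2.92 ± 0.41 in WENR-minus (adjusted p = 0.000956) and by -2.37 ± 0.41 in WENR-plus (adjusted p = 0.00722). Without replicate 1 or without replicate 2 of the groups compared, the first of these had an adjusted p of 0.0628 and 0.0738, and the second was -1.79 without replicate 2 (adjusted p = 0.0747).

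Hnf4a rose in WENR-minus in each pair of groups. The difference was 1.74 ± 0.29 in proximal Scramble-sgRNA organoids (adjusted p = 0.00164), 1.55 ± 0.29 in proximal Cdx2-sgRNA organoids (adjusted p = 0.00786), 1.85 ± 0.30 in distal Scramble-sgRNA organoids (adjusted p = 0.000581) and 2.22 ± 0.30 in distal Cdx2-sgRNA organoids (adjusted p = 0.000120). The medium response did not differ between guides by the test in either region (log2 -0.19 ± 0.41 with adjusted p = 0.861 for proximal organoids, and 0.37 ± 0.40 with adjusted p = 0.850 for distal ones). The proximal calls were lost without replicate 1 for Scramble-sgRNA (adjusted p = 0.0639) and without replicate 2 for Cdx2-sgRNA (1.24, adjusted p = 0.0650) or when only the 4 libraries compared were fitted (adjusted p = 0.143).

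Between regions Hnf4a was not called in Scramble-sgRNA organoids (log2 -0.68 ± 0.29, adjusted p = 0.160 in WENR-minus and -0.57 ± 0.29, adjusted p = 0.416 in WENR-plus). In Cdx2-sgRNA organoids it was lower in proximal than in distal by 12.1-fold in WENR-minus (log2 -3.60 ± 0.32, adjusted p = 7.96e-06) and by 7.64-fold in WENR-plus (log2 -2.93 ± 0.31, adjusted p = 8.05e-05). From the lowest to the highest group mean, the order was proximal Cdx2-sgRNA in WENR-plus (48.6 ± 24.3 CPM, SD, n = 2), proximal Cdx2-sgRNA in WENR-minus (142 ± 18.5), proximal Scramble-sgRNA in WENR-plus (252 ± 3.41), both distal WENR-plus groups (371 ± 32.4 and 373 ± 104), then proximal Scramble-sgRNA (840 ± 108), distal Scramble-sgRNA (1347 ± 18.0) and distal Cdx2-sgRNA (1725 ± 35.6) in WENR-minus. The distal WENR-plus neighbours did not differ beyond their spread.

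Most Hnf4a reads fell on transcripts that begin at the downstream P1 start. The P1 reads amounted to 814 CPM in proximal Scramble-sgRNA and 131 CPM in proximal Cdx2-sgRNA organoids in WENR-minus, and to 1318 and 1703 CPM in the distal groups. Reads on the P2 transcript amounted to 25.9 ± 7.73 CPM and 10.9 ± 1.93 CPM in the proximal groups (Scramble-sgRNA and Cdx2-sgRNA, WENR-minus) and to 12.2 ± 2.15 and 4.34 ± 1.71 CPM in WENR-plus. In distal organoids the P2 level stayed between 20.03 and 33.3 CPM over the 8 libraries. As a share of Hnf4a reads, P2 was highest in proximal Cdx2-sgRNA organoids, at 9.21 ± 1.08% in WENR-plus and 7.65 ± 0.359% in WENR-minus, and lowest in distal Cdx2-sgRNA organoids in WENR-minus at 1.28 ± 0.0205%. The P2 share was above its WENR-minus value in WENR-plus in each region with each guide by the group means. No test was run on these shares, and Salmon divides reads among overlapping transcripts.

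**Figure D4:**
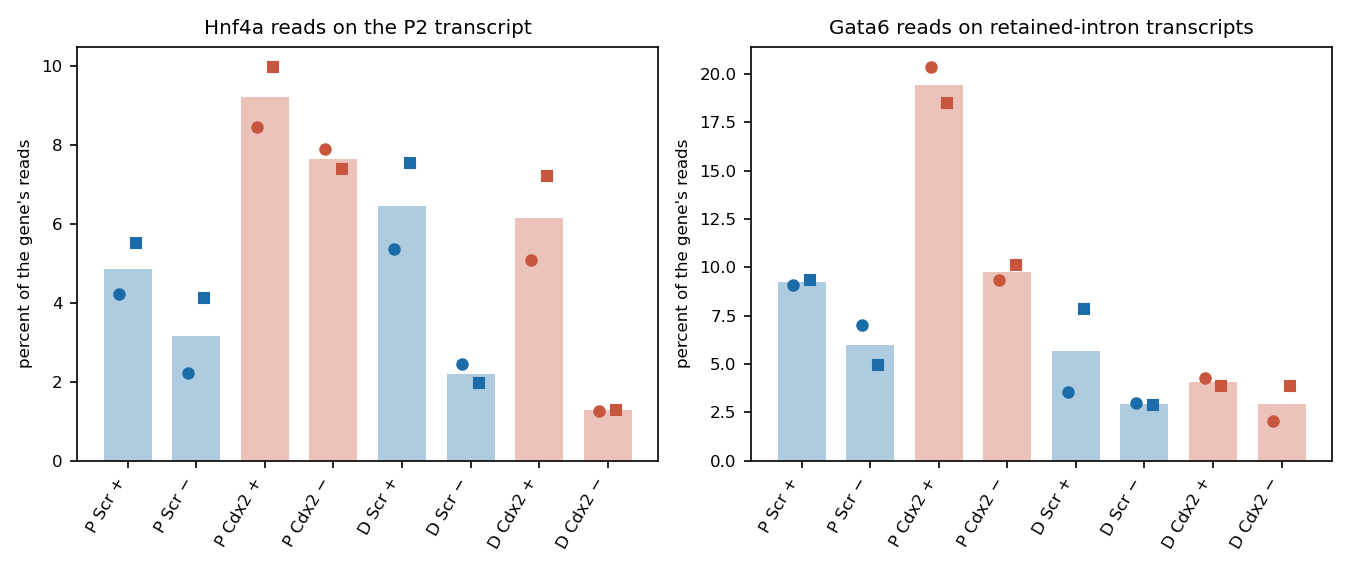
Percent of the reads of Hnf4a on its P2 transcript (left) and of Gata6 on retained-intron transcripts (right) in each library (circles, replicate 1; squares, replicate 2; bars, group means). The highest shares stand in proximal Cdx2-sgRNA organoids in WENR-plus, at a mean of 9.21% for P2 and 19.4% for the retained-intron transcripts.

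Hnf4g, on chromosome 3 at 3508030 to 3658052 (plus strand), was a lowly expressed member of the pair. It stood at 13.01 and 19.5 CPM in proximal Scramble-sgRNA organoids in WENR-minus and at 9.75 and 10.8 CPM in WENR-plus, against 2.45 and 4.44 CPM and 1.51 and 2.80 CPM with Cdx2-sgRNA. The 4 proximal Cdx2-sgRNA libraries were the lowest 4 of all 16. Hnf4g fell by 2.23 ± 0.37 in WENR-minus (4.68-fold, adjusted p = 0.00100) and fell by 2.25 ± 0.37 in WENR-plus (4.75-fold, adjusted p = 0.00166).

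In distal organoids Hnf4g held 10.6 and 8.31 CPM with Scramble-sgRNA and 12.4 and 16.6 CPM with Cdx2-sgRNA in WENR-minus, and 12.5 and 11.2 CPM against 8.14 and 5.82 CPM in WENR-plus. The distal differences had opposite signs in the 2 media, and neither passed the test (0.62 ± 0.35, adjusted p = 0.292 and -0.77 ± 0.35, adjusted p = 0.784). The effect of Cdx2 loss was lower in proximal than in distal organoids by -2.85 ± 0.51 in WENR-minus (adjusted p = 0.00377; without replicate 2, -2.64 and 0.0848), while in WENR-plus the difference of -1.48 ± 0.51 was not called (adjusted p = 0.118). The medium moved Hnf4g past the test in distal Cdx2-sgRNA organoids (1.06 ± 0.35, adjusted p = 0.0281), and without replicate 1 or replicate 2 the call was lost (1.52, adjusted p = 0.0502 and 0.60, adjusted p = 0.427). The other 3 medium differences of Hnf4g, 0.66, 0.68 and -0.33, were not called. That the medium response differs between guides was not shown in distal organoids (1.39 ± 0.50, adjusted p = 0.408). In Cdx2-sgRNA organoids Hnf4g was lower in proximal than in distal by -2.06 ± 0.37 in WENR-minus (adjusted p = 0.000873) and by -1.69 ± 0.37 in WENR-plus (adjusted p = 0.00672; without replicate 1, -1.06 and 0.163; with the compared libraries alone, 0.0697).

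A list of 18 enterocyte genes known as HNF4 targets was read beside the pair, and 17 were tested, since Fabp1 had at most 3 reads in any library. In proximal organoids 10 of 17 were lower and 2 higher after Cdx2 loss in WENR-minus, with a median log2 fold change of -4.02 (beside 21.2% of all genes called in either direction), and 7 were lower and 1 higher in WENR-plus, with a median of -2.54 (beside 15.9%). In distal organoids 3 were higher and 1 lower in WENR-minus (median 0.97, beside 5.25%), and 0 were called by edgeR in WENR-plus (median 0.29, 4 at an unadjusted p under 0.05, beside 0.262%). Among those lower in proximal organoids, Ush1c, a scaffold of the microvillar links, fell by 7.75 in WENR-minus and fell by 6.61 in WENR-plus, the protocadherin Cdhr5 changed by -7.26 and -4.84, and the motor Myo7b by -7.004 and -5.41. Pck1, of gluconeogenesis, held 701 reads summed over the 2 proximal Scramble-sgRNA libraries and 1 read summed over the 2 Cdx2-sgRNA libraries in WENR-minus, a ratio of 643 in CPM with a 95% counting interval of 115 to 25414. The genes higher in proximal organoids, named after their values were seen, were Apob (2.58) and Ttr (4.43), which encode an apolipoprotein and a thyroid hormone carrier. Those higher in distal organoids were the apolipoprotein genes Apoa1 (4.55), Apoa4 (3.62) and Apob (6.004), and Fabp2 was lower there (-3.22). In WENR-minus against WENR-plus, 7, 2, 7 and 10 of the 17 were higher in proximal Scramble-sgRNA, proximal Cdx2-sgRNA, distal Scramble-sgRNA and distal Cdx2-sgRNA organoids, and none was lower (beside 17.0%, 6.40%, 26.4% and 33.1% of all genes). The list shares Cdhr5 with the colonocyte markers.

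Gata4, on chromosome 14 at 63198922 to 63271692 (minus strand), was near the limit of detection. Proximal Scramble-sgRNA organoids held 95 and 157 reads in WENR-minus (5.89 and 8.18 CPM) and 64 and 70 reads in WENR-plus (3.06 and 4.14 CPM). Proximal Cdx2-sgRNA organoids held 1 and 0 reads in WENR-minus and 2 and 0 reads in WENR-plus. From the summed reads, Gata4 in WENR-minus was lower by a ratio of 231 with an exact 95% counting interval of 41.1 to 9159 (adjusted p = 0.0442). In WENR-plus the ratio was 64.04 with an interval of 17.4 to 534, and there the test was not passed (adjusted p = 0.0922). Such intervals cover counting error only. The WENR-minus call was lost with length-scaled counts (adjusted p = 0.111) and without replicate 1 or 2 (0.172 and 0.279). The WENR-plus difference was called with DESeq2 (0.00907), with the compared libraries alone (0.0212), with the replicate number as a block (0.0232) and without a filter (1.32e-14).

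In distal organoids Gata4 depended on the replicate. With Scramble-sgRNA, replicates 1 and 2 held 207 and 24 reads in WENR-minus and 176 and 6 reads in WENR-plus, and with Cdx2-sgRNA 97 and 7 reads and 67 and 1 reads. Replicate 1 was the higher in 4 of 4 distal groups, at 15.9 against 1.72 CPM, 8.81 against 0.323, 8.21 against 0.585 and 3.84 against 0.0529 CPM. Within each number and medium the Cdx2-sgRNA library was the lower one, in 4 of 4 pairs. The 2 media of a number and guide share a culture, so neither these pairs nor the 4 groups are independent of each other. The distal differences after Cdx2 loss were -1.002 ± 1.55 (adjusted p = 0.733) and -1.24 ± 1.58 (adjusted p = 0.974). With the replicate number as a block they were -1.07 ± 1.18 (adjusted p = 0.5998) and -1.21 ± 1.21 (adjusted p = 0.897), not called either. The region difference of the response was not called (adjusted p = 0.173 in WENR-minus and 0.407 in WENR-plus), though it was called in WENR-minus with DESeq2 (0.0475) and in both media without a filter (1.73e-10 and 1.03e-05). Within the Cdx2-sgRNA groups in WENR-minus Gata4 was lower in proximal than in distal by a ratio of 142 with an interval of 24.9 to 5648 (adjusted p = 0.0466), a call lost with length-scaled counts and without either replicate. In WENR-plus the ratio was 33.8 with an interval of 9.01 to 285 (adjusted p = 0.139), which was called with DESeq2 (0.0264) and without a filter (3.00e-10). Between media Gata4 was higher in WENR-minus in each of the 6 same-numbered pairs outside proximal Cdx2-sgRNA organoids, where at most 2 reads were left. The pairing of media within a culture was not fitted, and no medium difference passed the test, with or without the replicate number as a block. Without a filter the distal Cdx2-sgRNA one was called (1.24, adjusted p = 0.0383).

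Gata6, on chromosome 18 at 11052064 to 11085635 (plus strand), moved the other way from Gata4 in proximal organoids. It stood at 21.6 and 29.7 CPM with Scramble-sgRNA and 54.9 and 56.0 CPM with Cdx2-sgRNA in WENR-minus, and at 22.1 and 24.9 CPM against 40.3 and 42.2 CPM in WENR-plus. The groups did not overlap in either medium, which with 2 libraries each is not a test by itself. Gata6 rose by 1.11 ± 0.25 in WENR-minus (2.16-fold, adjusted p = 0.00705; without replicate 1, 0.96 and 0.0997). In WENR-plus the difference of 0.81 ± 0.25 passed the p threshold (adjusted p = 0.0380) but not the fold threshold, which it passed with length-scaled counts (1.12).

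Distal organoids held 23.2 and 45.1 CPM of Gata6 with Scramble-sgRNA and 37.1 and 34.2 CPM with Cdx2-sgRNA in WENR-minus, and 32.8 and 37.96 CPM against 40.3 and 43.1 CPM in WENR-plus. The distal differences were 0.06 ± 0.25 and 0.24 ± 0.25 (adjusted p = 0.916 and 0.969). The region difference of the response in WENR-minus, 1.05 ± 0.36, was not called (adjusted p = 0.0666), but with the replicate number as a block it was (1.02, adjusted p = 0.0410). Over the 9 alternatives its adjusted p ran from 0.0107 to 0.266, and it was called in 5. Medium differences of Gata6 lay between -0.23 and 0.43 and none was called. Of the reads of Gata6, retained-intron transcripts took 19.4 ± 1.32% in proximal Cdx2-sgRNA organoids in WENR-plus and 9.74 ± 0.528% in WENR-minus, against 9.22 ± 0.168% and 5.98 ± 1.49% with Scramble-sgRNA, and 2.91 to 5.69% by group mean in distal organoids.

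A list of 7 genes of the jejunum and ileum was read beside the GATA pair. Of these, 3 (Cyp3a11, Fabp6 and Lct) had at most 3 reads in any library and 4 were tested. All 4 tested genes were lower in proximal organoids after Cdx2 loss in WENR-minus, and 3 in WENR-plus (beside 21.2% and 15.9% of all genes called), while 0 of 4 were called by edgeR in distal organoids in either medium (0 at an unadjusted p under 0.05, beside 5.25% and 0.262%). Slc10a2, the ileal bile acid transporter, went from 354 to 0.810 CPM in WENR-minus (fell by 8.73 ± 0.55, adjusted p = 1.23e-06) and from 27.9 to 0.602 CPM in WENR-plus (fell by 5.51 ± 0.52). Sis, the sucrase-isomaltase of the brush border, went from 1062 reads to 1 read, each summed over 2 libraries, in WENR-minus, a ratio of 973 in CPM with a counting interval of 174 to 38483. Of the pair Slc51a and Slc51b, which together export bile acids, Slc51b went from 450 to 4 summed reads there, a ratio of 103 with an interval of 39.99 to 380.1. Slc51a, with 0 reads in both Cdx2-sgRNA libraries, was at least 37.8-fold lower against a floor of 3 reads per library. The bile acid genes of the list are ileal, not jejunal. Of the 4 genes 3 were higher in WENR-minus than in WENR-plus in Scramble-sgRNA organoids of each region (beside 17.0% of all genes in proximal and 26.4% in distal). In Cdx2-sgRNA organoids 2 of 4 were higher in distal (beside 33.1%) and 0 were called by edgeR in proximal (beside 6.40%, 1 at an unadjusted p under 0.05).

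Isx, on chromosome 8 at 74873173 to 74893506 (plus strand), whose start region is printed above, was lower after Cdx2 loss in each region and medium. In proximal Scramble-sgRNA organoids it held 6473 and 7739 reads in WENR-minus (401 and 403 CPM) and 4118 and 3047 reads in WENR-plus (197 and 180 CPM). In proximal Cdx2-sgRNA organoids 17 and 16 reads were left in WENR-minus (1.26 and 0.846 CPM) and 22 and 20 reads in WENR-plus (1.28 and 1.06 CPM). The difference was 387-fold in WENR-minus (fell by 8.59 ± 0.28, adjusted p = 1.11e-08) and 161-fold in WENR-plus (fell by 7.33 ± 0.26, adjusted p = 4.81e-08).

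In distal organoids Isx went from 258 and 185 CPM to 55.8 and 68.5 CPM in WENR-minus and from 152 and 141 CPM to 16.9 and 20.8 CPM in WENR-plus. The groups did not overlap. Isx fell by 1.83 ± 0.20 in distal organoids in WENR-minus (3.57-fold, adjusted p = 0.00125) and by 2.96 ± 0.21 in WENR-plus (7.77-fold, adjusted p = 0.000194), while Cdx2 RNA was not called there in either medium. The response was the deeper one in proximal organoids, by -6.76 ± 0.32 in WENR-minus (adjusted p = 3.19e-07) and by -4.37 ± 0.31 in WENR-plus (adjusted p = 1.65e-05). Each of these 6 calls of Isx held in 9 of 9 alternative fits.

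Removal of WENR raised Isx in proximal Scramble-sgRNA organoids (1.09 ± 0.19, adjusted p = 0.00193; without replicate 1, 0.0505) and in distal Cdx2-sgRNA organoids (1.72 ± 0.20, adjusted p = 4.40e-05). In distal Scramble-sgRNA organoids the rise of 0.60 ± 0.19 passed the p threshold (adjusted p = 0.0259) but not the fold threshold, and in proximal Cdx2-sgRNA organoids the difference was -0.17 ± 0.29 (adjusted p = 0.770). The difference between guides was not called in proximal (-1.26 ± 0.35, adjusted p = 0.0627) or distal organoids (1.12 ± 0.27, adjusted p = 0.251), though both were called with DESeq2 (0.0301 and 0.0140) and without a filter (0.0147 and 0.0174), and the proximal one also with at least 10 reads in every library (0.0411). In Scramble-sgRNA organoids Isx was higher in proximal than in distal by 0.86 ± 0.19 in WENR-minus (adjusted p = 0.0167, under the fold threshold), and in Cdx2-sgRNA organoids it was 59.7-fold and 16.1-fold lower in proximal (WENR-minus and WENR-plus; adjusted p = 7.52e-08 and 1.34e-06).

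Both genes known to be repressed by ISX were tested. Scarb1, a lipid and carotenoid uptake receptor, held 14.15 against 14.01 CPM in proximal organoids in WENR-minus (Cdx2-sgRNA and Scramble-sgRNA; log2 0.02, adjusted p = 0.964) and was called in none of the 4 comparisons of Cdx2 loss. Bco1, the enzyme that cleaves beta-carotene, rose in distal organoids in WENR-minus from 2.28 to 8.04 CPM (1.81 ± 0.47, adjusted p = 0.0360) and fell in proximal organoids in WENR-plus from 0.861 to 0.248 CPM (-1.76, adjusted p = 0.0400). In proximal organoids in WENR-minus Bco1 held 0.466 against 0.952 TPM (Cdx2-sgRNA and Scramble-sgRNA) and was not called. There 1 of the 2 genes stood at an unadjusted p under 0.05 by edgeR.

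Prdm1, on chromosome 10 at 44437177 to 44528501 (minus strand), answered the medium. Distal Scramble-sgRNA organoids held 47.3 and 68.5 CPM in WENR-minus against 5.41 and 3.495 CPM in WENR-plus, and distal Cdx2-sgRNA organoids 121 and 109 CPM against 8.71 and 8.15 CPM. Prdm1 rose by 3.70 ± 0.45 (12.97-fold, adjusted p = 0.000133) and by 3.77 ± 0.44 (13.7-fold, adjusted p = 5.10e-05). In proximal Scramble-sgRNA organoids it held 23.1 and 7.82 CPM in WENR-minus and 3.06 and 2.43 CPM in WENR-plus, a rise of 2.48 ± 0.45 (adjusted p = 0.00224) that without replicate 1 was 1.71 (adjusted p = 0.0526). In proximal Cdx2-sgRNA organoids it held 22.1 and 21.8 CPM against 18.4 and 28.3 CPM, and the medium made no difference that passed the test (-0.09 ± 0.40, adjusted p = 0.930).

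The medium response of Prdm1 differed between the guides in proximal organoids by -2.57 ± 0.60 (adjusted p = 0.0396) and not by the test in distal organoids (0.07 ± 0.59, adjusted p = 1.00). The proximal call was lost with length-scaled counts (0.0815), with the compared libraries alone (0.123) and without replicate 1 or 2 (0.181 and 0.0997). After Cdx2 loss Prdm1 rose in proximal organoids in WENR-plus by 3.08 ± 0.45 (8.48-fold, adjusted p = 0.000745), where the Cdx2-sgRNA libraries lay above both controls. In proximal WENR-minus the difference was 0.51 ± 0.40 (adjusted p = 0.362), and it was 1.52 without replicate 1 (adjusted p = 0.0285) and -0.09 without replicate 2. The distal differences, 0.99 ± 0.40 in WENR-minus and 0.92 ± 0.43 in WENR-plus, were not called (adjusted p = 0.142 and 0.794). The WENR-minus one was called in 1 of 9 alternatives, without a filter (1.01, adjusted p = 0.000401). The region difference of the response in WENR-plus, 2.17 ± 0.61, was not called (adjusted p = 0.0628), but it was in 3 of 9 alternatives: without a filter (1.92e-08), with the compared libraries alone (0.0409) and with DESeq2 (0.00814). Over the 9 its adjusted p ran from 1.92e-08 to 0.590.

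Prdm1 was the member called between regions in Scramble-sgRNA organoids, lower in proximal in WENR-minus by -1.91 ± 0.41 (3.76-fold, adjusted p = 0.0151). Both replicates of the proximal group stood far apart, at 23.1 and 7.82 CPM. Without replicate 2 of both groups the difference was -1.04 (adjusted p = 0.247), without replicate 1 it was -3.18, and with the compared libraries alone the adjusted p was 0.0802. In Cdx2-sgRNA organoids Prdm1 was lower in proximal in WENR-minus (-2.39 ± 0.42, adjusted p = 0.000750) and higher in WENR-plus (1.47 ± 0.41, adjusted p = 0.0213). The latter was not called with length-scaled counts (0.0519) or without replicate 1 or 2 (0.0797 and 0.291).

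Genes of the suckling to adult switch, which Prdm1 is known to control, were read beside it, 5 of 6 being tested. Ass1, the argininosuccinate synthase of the suckling epithelium, rose in proximal organoids after Cdx2 loss from 9.13 to 384 CPM in WENR-minus (5.38 ± 0.67, adjusted p = 0.000164) and from 22.1 to 249 CPM in WENR-plus (3.49 ± 0.61). Sis fell, as given above. Fcgrt, the neonatal immunoglobulin receptor, rose in distal organoids in WENR-minus (1.75 ± 0.47, adjusted p = 0.0393), and 0 of 5 were called by edgeR in distal organoids in WENR-plus (1 at an unadjusted p under 0.05, beside 0.262% of all genes called). In all, 2 of the 5 were higher and 1 lower in proximal organoids in each medium (beside 21.2% in WENR-minus and 15.9% in WENR-plus), and 1 was higher in distal organoids in WENR-minus (beside 5.25%).

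Satb1, on chromosome 17 at 51736187 to 51833290 (minus strand), had 2 reads in 1 distal Cdx2-sgRNA library in WENR-minus, on a retained-intron transcript, and 0 reads in the other 15 libraries. A count of 0 allows up to 3 reads, or 0.159 to 0.241 CPM without TMM over the libraries, so Satb1 was not detectable at this depth and no fold change was formed.

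Other transcription factors of the intestinal epithelium gave the setting. Of 30 listed and 29 tested, 8 were lower and 4 higher in proximal organoids after Cdx2 loss in WENR-minus (median -0.53, beside 21.2% of all genes called) and 8 lower and 1 higher in WENR-plus (median -0.59, beside 15.9%), against 1 lower and 1 higher in distal organoids in WENR-minus (median 0.25, beside 5.25%) and 0 by edgeR in WENR-plus (median 0.07, 4 at an unadjusted p under 0.05, beside 0.262%). Nr5a2, an orphan nuclear receptor of crypts, went from 1569 reads to 6 reads, each summed over 2 libraries, in proximal organoids in WENR-minus (44.01 to 0.191 CPM), a ratio of 239.7 with a counting interval of 109.9 to 654. It fell by 5.85 in WENR-plus and fell by 2.17 in distal organoids in WENR-minus. Vdr, the vitamin D receptor, fell by 6.89 and fell by 5.68 in proximal organoids. Onecut2, a homeobox factor gene, rose by 5.40 in WENR-minus, from 2.26 to 94.4 CPM, and the GATA cofactor gene Zfpm2 was at least 154-fold higher, from 0 reads in both control libraries to 26.4 CPM.

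Markers of other cell types were summed in the same way. Of 9 lymphocyte genes 7 had at most 3 reads in any library, and the sum of the 9 was at most 1.502 TPM. Of 4 endothelial genes 2 were at that limit (sum at most 0.720 TPM), and of 7 mesenchymal genes 4. The mesenchymal sum went from 2.14 to 7.28 TPM down to 0.231 to 0.654 TPM in proximal organoids after Cdx2 loss in WENR-minus and from 0.913 to 3.84 TPM down to 0.174 to 0.368 TPM in WENR-plus. Vim, the intermediate filament gene, held 97.8% and 98.4% of it in the controls and was called lower in both media (adjusted p = 0.00427 and 0.00497). Of 10 gastric epithelial genes 3 were at that limit, and their sum was 2.89 to 14.6 TPM in proximal Cdx2-sgRNA against 0.985 to 1.30 TPM in proximal Scramble-sgRNA organoids in WENR-minus, and 0.919 to 21.9 against 9.15 to 10.7 TPM in WENR-plus. Single genes held most of these sums: Tff1 73.3% and Gkn3 99.9% in the Cdx2-sgRNA groups and Tff2 98.4% and 99.5% in the controls (WENR-minus and WENR-plus). Of 6 macrophage genes Adgre1 and C1qa were at that limit, but the sum of the 6 went from 12.3 to 17.2 TPM up to 101 to 120 TPM in proximal organoids after Cdx2 loss in WENR-minus, with Csf1r, Cd68 and Cd14 higher and Itgam lower, and Cd14 held 73.5% of the sum after Cdx2 loss. In WENR-plus the macrophage sum went from 12.3 to 16.4 TPM up to 37.3 to 42.5 TPM, and Cd14 held 67.3% of it after Cdx2 loss. The part of these markers in the changes of the 7 factors was not tested.

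By the pattern of mean log2 CPM over the 8 groups, the genes most like each member among 9907 compared (9908 for Gata4) were, for Hnf4a, F2rl1 (Pearson r = 0.996), Golph3l (0.993) and Ddi2 (0.993). For Hnf4g they were Plpp1 (0.981), Tspan7 (0.970) and Apbb2 (0.968). For Gata4 they were Isx (0.987), Fgl2 (0.987) and Fam189a2 (0.984), and for Isx they were Fam189a2 (0.9898), Ovca2 (0.986) and Ptprd (0.981). For Gata6 they were Cd14 (0.974), Ckap4 (0.970) and Vill (0.961), and for Prdm1 they were Ifnlr1 (0.989), Gpr35 (0.985) and Ezh1 (0.984). Among the members themselves r was 0.860 for Hnf4a with Hnf4g, 0.928 for Hnf4g with Isx and -0.852 for Gata4 with Gata6. These 8 points share their libraries and clones, and the values are a description with no test.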

How the data were processed

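The deposited files hold, per the file headers, an estimated count (NumReads) and a TPM for each transcript of each library. The authors made them with Salmon 1.1.0 (build mm10, GENCODE annotation) from stranded total RNA libraries and compared genes with DESeq2. Of 140748 transcripts 139864 matched the GENCODE vM21 models used here, and at most 0.509% of the reads of a library lay on the rest. Mitochondrial ribosomal RNA took 15.4 to 28.0% of reads, which lowers the reads left for other genes.

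Estimated counts were summed per gene, rounded and fitted in edgeR 4.0.16 (R 4.3.3) by the quasi-likelihood test with filterByExpr and TMM, over all 16 libraries as 8 groups with 8 residual degrees of freedom and a prior count of 0.125. P-values were adjusted by Benjamini-Hochberg over all 15289 genes tested, and errors of fold changes are standard errors. TPM served to compare levels between genes and for the sums of marker lists, and CPM to compare libraries for single genes. TPM was not scaled by TMM, so sums in TPM also depend on the other RNA of a library. A fold against a group with 0 reads was formed against 3 reads per library and given as a bound. Where all libraries of the lower group held at most 3 reads, not all 0, summed reads over summed effective library sizes gave a ratio. Its exact 95% binomial interval (Clopper-Pearson) covers counting error only. In medians of lists and in the plot, both kinds were set at 3 reads per library. Figures were drawn with matplotlib 3.10.9 in Python 3.11.15, and the fit was tested on simulated data.

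Groups and replicate numbers came from the labels. The labels call the replicates biological and the methods name 2 mice, so a number was taken to mark a mouse. Deviations of same-numbered libraries correlated at 0.281 to 0.589 between the media of a culture and at -0.0594 to 0.189 otherwise.

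Alternatives were RLE size factors, no filter, at least 10 reads in every library, DESeq2 1.42.0, a replicate block, the compared libraries alone, length-scaled counts, no fold threshold, and each replicate left out of the groups compared. The last leaves 1 library per arm, assumed to vary like the other groups. Named were the members, Cdx2 and Cdx1, up to 4 genes per list with the largest called change after Cdx2 loss at 5 CPM or more, and for each tested member the 3 genes with the most similar pattern. The members and lists were chosen with earlier results of these data known. Some items are not reported here.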

Additional observations from a re-analysis of the deposited data

Results flagged for a closer look

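The response to Cdx2 loss differed between proximal and distal organoids by the interaction test for 3 members, always lower in proximal organoids. The difference in log2 fold change was -6.76 in WENR-minus and -4.37 in WENR-plus for Isx, -2.92 and -2.37 for Hnf4a, and -2.85 in WENR-minus for Hnf4g. The response to the removal of WENR differed between the guides in proximal organoids for Prdm1, by -2.57 on the log2 scale. Proximal Cdx2-sgRNA organoids also had lower Cdx2 RNA than distal ones relative to their controls (-1.22 in WENR-minus and -1.72 in WENR-plus), and the part of this in the region differences was not tested.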

How the results depend on the processing

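Of 814 values of members under the alternatives 735 kept their direction and their side of the threshold, 29 lost and 23 gained a call, and 27 changed sign. None of the sign changes was among the 37 called differences. A replicate block fits a common shift between the numbers over all groups. The pairing of the media of a culture was not fitted. With the block, members called numbered 12 after Cdx2 loss, 10 between media and 10 between regions, against 11, 10 and 10 without it. It called 6 for the region difference of Cdx2 loss and 1 for the guide difference of the medium response, against 5 and 1. The block added Gata4 (proximal WENR-plus) and the region difference of Gata6, given above, and changed no other call. Members called between media numbered 6 to 8 with a replicate left out. The region difference of Cdx2 loss was called for 9 without a filter, 8 with DESeq2 and 2 to 5 with a replicate left out. The guide difference of the medium response was called for 3 without a filter and with DESeq2, 2 with at least 10 reads in every library, and 0 with length-scaled counts, with the compared libraries alone and with a replicate left out (0 to 0). The causes were not tested.

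Sign changes were all in differences not called. For Hnf4a after Cdx2 loss in distal WENR-plus (-0.0091) the values were 0.0080 with RLE, 0.011 with the replicate block, 0.0090 with the compared libraries alone, 0.0085 with DESeq2 and -0.12 to 0.20 with a replicate left out. For Gata6 between regions in Cdx2-sgRNA WENR-plus they were 0.019 with RLE, 0.033 without a filter, 0.073 with at least 10 reads, 0.37 with length-scaled counts, 0.037 with the compared libraries and 0.016 with DESeq2. For Gata6 between media in distal Scramble-sgRNA they were 0.0085 with RLE, 0.0088 with DESeq2 and -0.51 to 0.25 with a replicate left out. For Gata4 between regions in Scramble-sgRNA they were 0.94 (WENR-minus) and 1.07 (WENR-plus) with the replicate block, and -1.43 to 2.19 and -1.49 to 3.63 with a replicate left out. With a replicate left out the sign also turned in 8 other differences. They ran from -0.39 to 0.68 for Gata6 after Cdx2 loss in distal WENR-minus, from -0.090 to 1.52 for Prdm1 after Cdx2 loss in proximal WENR-minus, from -0.37 to 0.27 for Prdm1 between media in proximal Cdx2-sgRNA and from -1.42 to 0.83 for the region difference of Prdm1 in WENR-minus. The guide difference of the medium response ran from -0.66 to 0.41 for Hnf4a and from -0.20 to 0.23 for Hnf4g in proximal organoids, and from -0.55 to 0.35 for Gata6 and from -0.52 to 0.63 for Prdm1 in distal organoids. Without a filter that of Hnf4g was -0.023. Low counts limited what could be said of Gata4, with at most 2 reads in each proximal Cdx2-sgRNA library, and of Satb1, with at most 2 reads in any library.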
